A study of Homo sapiens with 12 samples.

Results

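The collagen chain genes were described in SH-SY5Y cells with and without FMR1. A gene was taken as a collagen chain where its symbol consisted of COL, a number, A and a number, which left out antisense and pseudogene names. This rule found 44 of the 59087 features in the count table. By class these were 11 fibrillar chains, 6 basement membrane chains, 10 fibril-associated (FACIT) chains, 5 beaded filament chains, 4 transmembrane chains, 3 network-forming chains, 2 multiplexins, 1 anchoring fibril chain and 2 others.

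SH-SY5Y cells are an established line from a human neuroblastoma, a tumour of the sympathetic nervous system. FMR1, the gene silenced in fragile X syndrome, codes for the translational regulator FMRP. Polyadenylated RNA of wild-type cells was sequenced beside that of 3 FMR1-knockout lines that the labels call independently generated. All cells were kept in medium with dialysed fetal bovine serum, either heavy (lysine and arginine with carbon-13 and nitrogen-15) or light (ordinary lysine and arginine), as used to label proteins for mass spectrometry (SILAC). Each medium held 3 wild-type libraries and 1 library of each knockout line, 12 libraries in all. Nothing in the labels says that the wild-type libraries came from separate cultures, so p-values measure the spread between these libraries, which may be technical. Each line was present in 2 libraries, so the absence of FMR1 and the derivation of a line cannot be told apart.

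Collagens are secreted or membrane-bound proteins built from 3 chains wound into a triple helix. Type IV chains form the sheet-like network of basement membranes, type VI chains form beaded microfilaments around cells, fibrillar chains form rope-like fibrils, and FACIT chains sit on the surface of those fibrils. Chains are hydroxylated, glycosylated and folded in the endoplasmic reticulum, leave it in enlarged carriers, and are trimmed and crosslinked outside the cell.

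Each library held between 25935152 and 40257027 counts. Levels are given as CPM, the share of a library that a gene holds, scaled to the same total in each library after TMM, a normalisation that equalises most genes between libraries. Differences are given as log2 fold changes of knockout against wild type with their standard error (SE). A difference was called where the p-value of edgeR's quasi-likelihood test, adjusted by Benjamini-Hochberg over all genes tested, was under 0.05. FMR1 itself lay at 37.7 ± 2.17 CPM in wild type (SD, n = 6), at 22.4 and 11.4 CPM in line 1 (heavy and light medium, in this order here and below), at 12.8 and 11.5 CPM in line 2 and at 7.19 and 9.06 CPM in line 3. The library labelled line 1 in heavy medium therefore kept the most FMR1 RNA of the 6 knockout libraries. It also stood between the wild type and line 1 in light medium for several collagens. For many of the results that rest on it, values without it are given as well. In bulk RNA, fewer cells that express a gene and less RNA per cell cannot be told apart.

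Of the 44 chains, 12 had no read in any library. These were 4 of the 6 basement membrane chains (COL4A3, COL4A4, COL4A5 and COL4A6), COL5A3, COL6A5, COL8A1, COL10A1, COL15A1, COL20A1, COL21A1 and COL25A1. A count of 0 allows, by a floor of 3 counts, up to 0.0741 CPM in the deepest and 0.116 CPM in the shallowest library. A further 10 chains had between 1 and 79 reads over all 12 libraries and did not pass the filter on low counts. They were COL2A1 with 79 reads, COL28A1 with 77, COL22A1 with 51, COL6A3 with 34, COL19A1 with 20, COL17A1 with 16, COL13A1 with 5, COL12A1 with 4, COL24A1 with 2 and COL14A1 with 1. The other 22 chains were tested.

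Collagen RNA in these cells came mostly from 5 chains. COL4A1, COL4A2, COL6A1, COL6A2 and COL18A1 held between 85.47% and 91.66% of all collagen CPM in every library. Genes were compared on CPM per kilobase of exon, with all annotated exons of a gene merged. These lengths can exceed that of the transcript present. They were 19.3 kb for COL4A2, 14.7 kb for COL4A1 and 5.34 kb for COL6A1. The order of chains therefore depends on the annotation, and by CPM alone COL4A2 was highest, at 147 CPM in wild type. Per kb, the wild-type order was led by COL6A1 at 13.3 ± 0.767 CPM per kb (SD, n = 6). COL6A2 at 9.16 ± 0.770, COL18A1 at 8.06 ± 0.811 and COL4A2 at 7.61 ± 0.288 CPM per kb followed, and the intervals of 1 SD of neighbours among these overlapped. COL4A1 came next at 4.12 ± 0.135 CPM per kb. COL9A2 at 1.03 ± 0.0595, COL11A1 at 0.954 ± 0.123 and COL16A1 at 0.935 ± 0.135 CPM per kb were the next 3 and overlapped within their SD. All other chains lay lower, with COL26A1 first among them at 0.560 ± 0.108 CPM per kb. COL6A3, the partner of COL6A1 and COL6A2 in the common form of type VI collagen, lay far lower. It was at 0.00525 ± 0.00330 CPM per kb, with 34 reads in all.

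**Figure D1:**
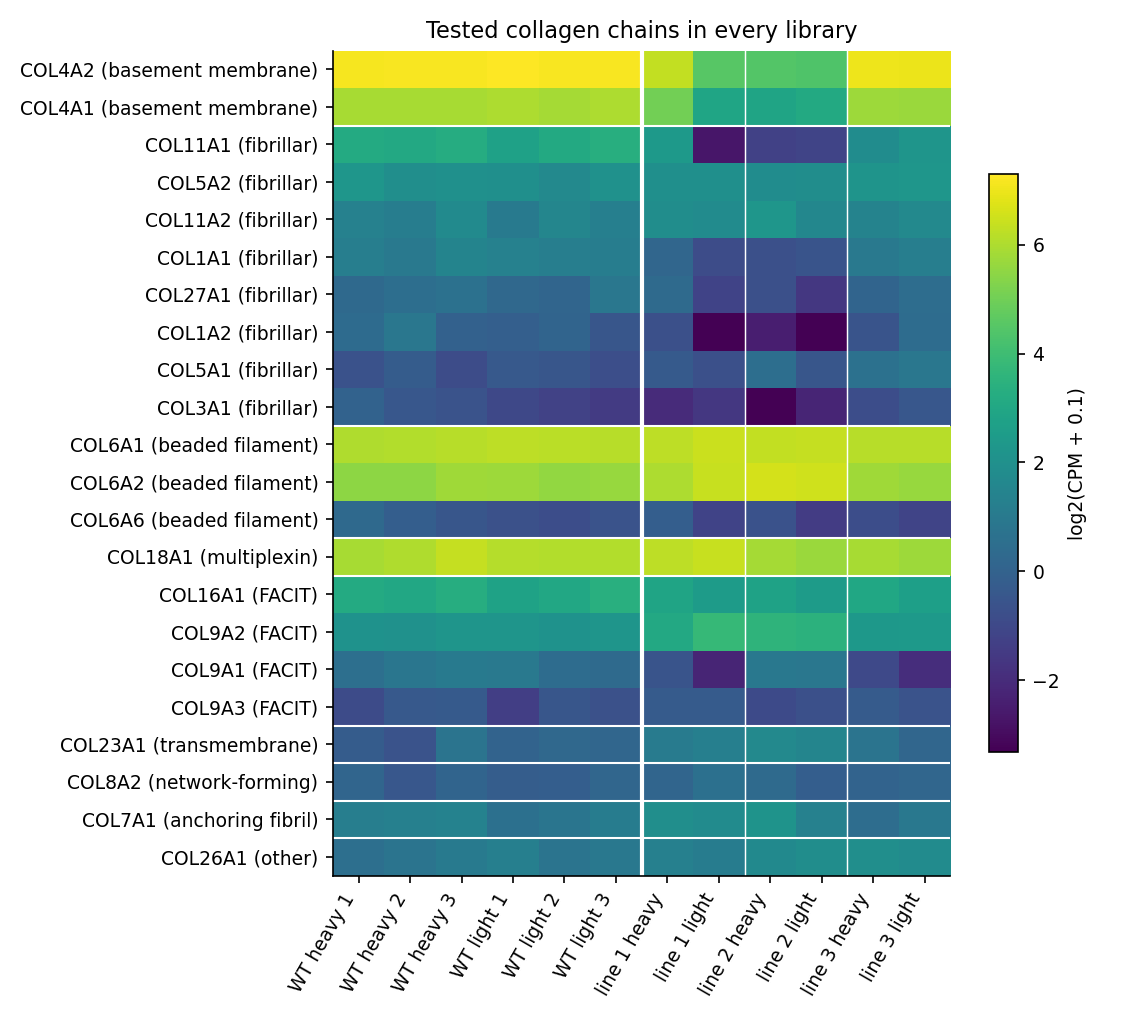
Levels of the 22 tested collagen chains (rows, by class) in the 12 libraries (columns, by genotype, medium and line), as log2 of CPM plus a small constant on the colour scale. Dark colours are low levels: the 2 type IV chains and COL11A1 are darker in both libraries of line 2 and in line 1 in light medium than in wild type, and line 3 lies close to wild type in most rows.

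The type IV pair is transcribed from a shared segment between the first exons of the genes, and the letters of this segment are shown because both genes fell together below. In RefSeq on GRCh38.p14, the starts of COL4A1 (minus strand, chromosome 13, start 110307157) and COL4A2 (plus strand, start 110307284) are 126 bases apart. The upstream 250 bases of COL6A2 and of COL9A2, which rose in the same lines, are set beside it. A RefSeq promoter entry was found for 32 of the 44 chains. Capitals mark 3 motifs, each searched on either strand. The first was CCAAT. The GC box was searched as GGGCGG, and the TATA motif as TATAAA. Occurrences may overlap, as 2 GC boxes do near the end of the COL9A2 sequence.
COL4A1-COL4A2 segment, chr13:110307158-110307283, plus strand: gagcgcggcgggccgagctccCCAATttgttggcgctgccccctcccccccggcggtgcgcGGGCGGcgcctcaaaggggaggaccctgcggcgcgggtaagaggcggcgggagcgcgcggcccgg
COL6A2 upstream, chr21:46097862-46098111, plus strand: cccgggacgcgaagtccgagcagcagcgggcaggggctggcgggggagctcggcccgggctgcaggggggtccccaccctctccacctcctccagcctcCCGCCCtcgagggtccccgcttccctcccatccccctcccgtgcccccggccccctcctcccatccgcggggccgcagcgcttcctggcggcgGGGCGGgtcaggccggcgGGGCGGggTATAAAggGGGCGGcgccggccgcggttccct
COL9A2 upstream, chr1:40317287-40317536, minus strand: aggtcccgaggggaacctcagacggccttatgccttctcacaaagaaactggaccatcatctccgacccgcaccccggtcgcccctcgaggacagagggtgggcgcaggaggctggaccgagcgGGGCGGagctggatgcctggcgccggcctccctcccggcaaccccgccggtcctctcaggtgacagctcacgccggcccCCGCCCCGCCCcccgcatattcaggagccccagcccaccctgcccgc
The type IV segment is 80.2% G and C and holds 1 CCAAT and 1 GC box. Among 35116 RefSeq promoters, a window of the same 126 bases upstream had a median of 60.3% G and C, and held CCAAT in 21.1%, a GC box in 34.6% and TATAAA in 5.9%. The COL6A2 sequence holds 4 GC boxes and 1 TATAAA, and the COL9A2 sequence 3 GC boxes. Over 250 bases, 32.0% of promoters held CCAAT, 42.6% a GC box and 10.7% TATAAA. A match in these letters is a description and not a bound site.

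In the 3 lines together and over both media, COL9A2, COL23A1, COL26A1 and COL6A2 were higher and COL16A1 was lower in knockout than in wild type, 5 of the 22 tested chains. Over all 16704 genes tested, 24.8% were called, 15% as higher and 9.78% as lower, so this share is near the background. The median log2 fold change was -0.034 over the 22 chains and 0.003 over all genes. The type IV pair, COL11A1 and COL1A1, with log2 fold changes between -1.94 and -1.01, were not called here, and the 3 lines lay far apart for them. Without the light library of line 3, 13 chains (5 higher, 8 lower) and 5907 of 16875 genes were called. Without its heavy library these were 8 chains and 5501 of 17148 genes. Without line 1 in heavy medium they were 7 chains and 3788 of 16874 genes. With all 12 libraries 4135 of 16704 genes were called, so the counts over all genes moved as well. On counts summed per line, 3 against 3, none passed by edgeR (smallest adjusted p = 0.0798), where 1.53% of 17726 genes were called. At an unadjusted p under 0.05 these were 8 of 25 chains and 27.2% of genes.

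Counts were larger in lines 1 and 2 than over the 3 lines together and smaller in line 3, and the lines were unlike each other. All 3 line comparisons share the 6 wild-type libraries. In line 1, 5 chains were higher and 6 lower, where 15.4% of all genes tested were higher and 12.8% lower (28.2% in all). In line 2, 8 chains were higher and 9 lower, against 22.9% and 20.1% of genes (43% in all). In line 3, 2 chains were higher and 1 lower, against 3.27% and 1.73% (5% in all). Without its heavy library line 1 had 14 called chains, without its light library 7, and line 2 without its heavy library 10. Line 3 had 6 called chains (1269 genes) without the heavy and 5 (1264 genes) without the light library of line 1. These libraries enter the shared estimate of the spread, and with them line 3 had 836 called genes. Medians over the 22 chains were 0.006, -0.202 and -0.046 in lines 1, 2 and 3, and those over all genes 0.000, 0.002 and 0.005. Lines 1 and 2 shared 10 called chains, all in the same direction, which are 10 of the 11 of line 1 and 10 of the 17 of line 2. The overlap over all genes was not counted, so this sharing cannot be called particular to collagens. Line 3 shared COL9A1 with line 1, and COL26A1 and COL5A1 with line 2. In each line the share of tested chains called was above that of all genes, which describes these chains and was not tested as a set.

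**Figure D2:**
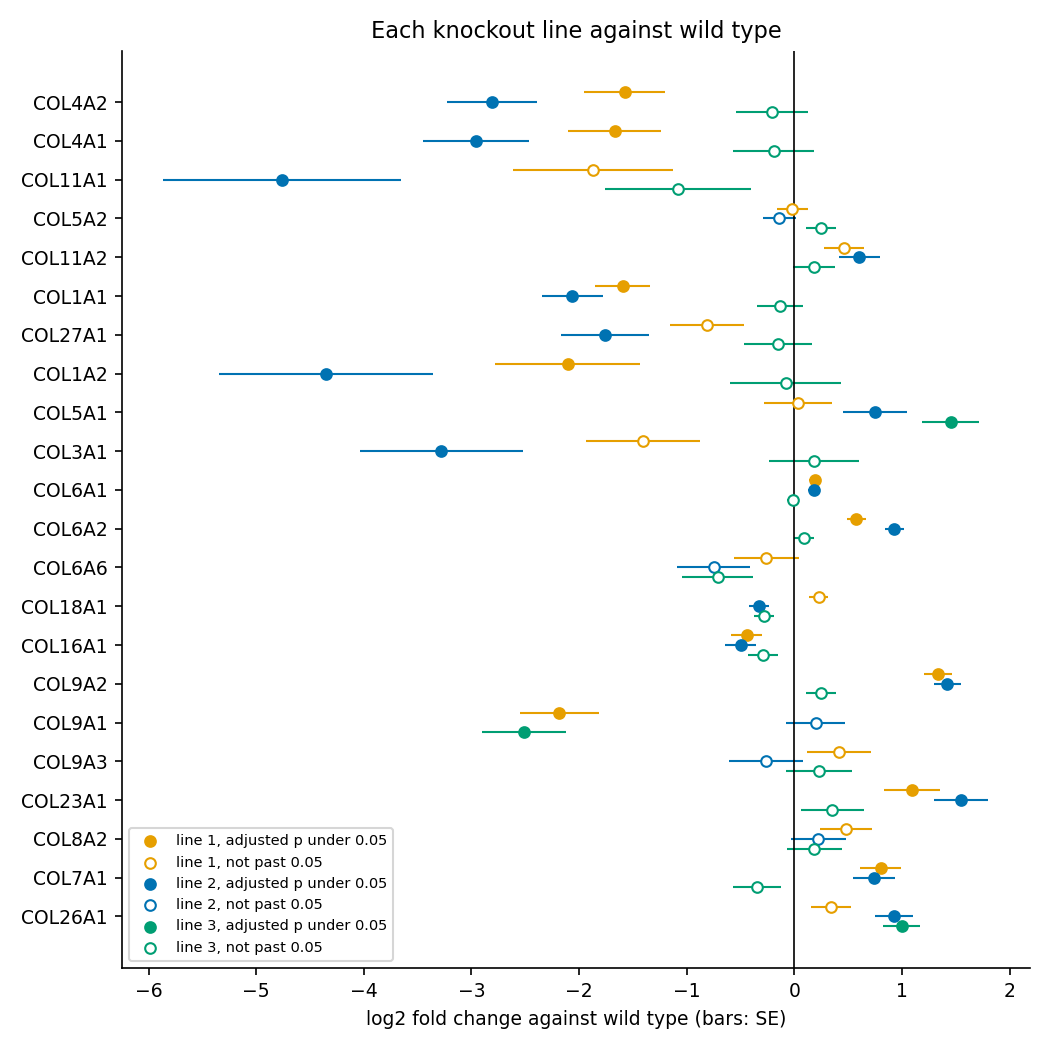
Log2 fold change of each tested chain (rows) in lines 1, 2 and 3 against wild type, with bars of 1 SE; filled points have an edgeR adjusted p under 0.05. Lines 1 and 2 lie on the same side for most chains and line 3 has filled points for COL9A1, COL26A1 and COL5A1 alone; the points of COL1A2 and COL3A1 in line 2 rest on 3 reads each.

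The largest loss of RNA was in the basement membrane class, where COL4A1 and COL4A2, the chains of the common type IV network, fell together in lines 1 and 2. COL4A1 (ENSG00000187498.15; chromosome 13, 110148963 to 110307233, minus strand, GRCh38) had a lowest, median and highest wild-type level of 57.7, 60.5 and 63.2 CPM. It was at 32.6 and 7.47 CPM in line 1, at 7.19 and 8.69 CPM in line 2 and at 54.0 and 52.4 CPM in line 3. All 6 knockout libraries thus lay below all 6 of the wild type, by a small margin in line 3 and by a wide one in line 2. The log2 fold change was -1.67 in line 1 (SE 0.432, adjusted p = 0.0251), -2.95 in line 2 (SE 0.492, adjusted p = 0.00209) and -0.19 in line 3 (SE 0.379, adjusted p = 0.845).

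COL4A2 (ENSG00000134871.18; chromosome 13, 110305812 to 110513209, plus strand), the second chain of the same trimer, ranged from 140.3 over a median of 146 to 157 CPM in wild type. It was at 80.03 and 23.1 CPM in line 1, at 21.9 and 20.3 CPM in line 2 and at 129 and 126 CPM in line 3. The pattern was that of COL4A1, with the groups not overlapping and line 1 in heavy medium between the others. Log2 fold changes were -1.58 in line 1 (SE 0.376, adjusted p = 0.0181), -2.81 in line 2 (SE 0.417, adjusted p = 0.00114) and -0.21 in line 3 (adjusted p = 0.805). Over the 3 lines, COL4A1 at -1.18 (adjusted p = 0.149) and COL4A2 at -1.15 (adjusted p = 0.134) were not called.

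Line 1 in heavy medium decided the size of these falls in line 1. Without it, line 1 stood at -3.04 for COL4A1 (adjusted p = 4.45e-14) and -2.67 for COL4A2 (adjusted p = 5.74e-15), and without its light library at -0.88 (adjusted p = 1.77e-06) and -0.87 (adjusted p = 1.29e-07). In a fit of only line 1 and wild type, COL4A1 at -1.72 was not called (adjusted p = 0.0546). A test of differences among the 3 lines did not call COL4A1 (adjusted p = 0.355) or COL4A2 (adjusted p = 0.289), but called both when line 1 in heavy medium was left out, which left line 1 with 1 library assumed to vary like the others.

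The ratio between the type IV chains moved far less than their level. COL4A2 was 1.846-fold COL4A1 per kb in the mean of wild type, with a range of 1.786 to 1.911. Line 1 had ratios of 1.877 and 2.361, line 2 of 2.325 and 1.786, and line 3 of 1.822 and 1.831. It left the wild-type range in line 1 in light medium and line 2 in heavy medium, and there COL4A1 was the lower chain relative to its partner.

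**Figure D3:**
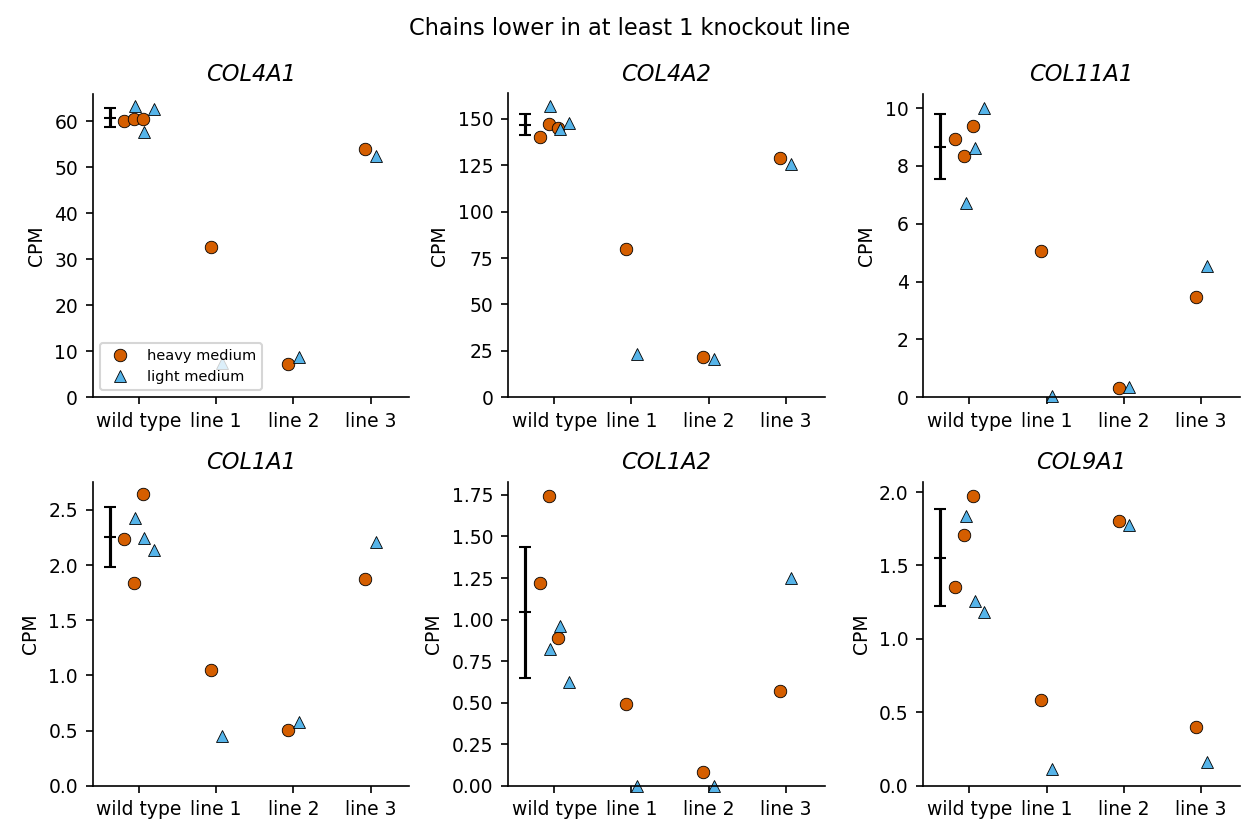
CPM of COL4A1, COL4A2, COL11A1, COL1A1, COL1A2 and COL9A1 in each library (points), by wild type and knockout line, with heavy and light medium marked; each panel has its own axis from 0. Line 2 is low in every panel except COL9A1, which is instead low in lines 1 and 3.

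COL18A1, a multiplexin of basement membranes and the source of endostatin, had another order of lines. COL18A1 (chromosome 21, 45405137 to 45513720, plus strand) ranged from 60.6 over 67.3 to 81.3 CPM in wild type. It was at 76.1 and 84.7 CPM in line 1, at 58.1 and 51.3 CPM in line 2 and at 60.2 and 53.2 CPM in line 3. Line 1 lay at the top of the wild-type range and above it, and both other lines below its lowest value. Its log2 fold change was 0.23 in line 1 (adjusted p = 0.067), -0.33 in line 2 (adjusted p = 0.00874) and -0.28 in line 3 (adjusted p = 0.0997), and the lines differed from each other (adjusted p = 0.005). Without line 1 in heavy medium, line 1 stood at 0.34 (adjusted p = 0.0287). Without the light library of line 2, line 2 stood at -0.26 and was not called (adjusted p = 0.141). Its exons overlap those of SLC19A1 on the opposite strand.

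The beaded filament chains COL6A1 and COL6A2, neighbours on chromosome 21, led the wild-type order per kb of annotated exon, and COL6A2 rose in lines 1 and 2. COL6A2 (chromosome 21, 46098097 to 46132849, plus strand) ranged from 44.6 over 49.3 to 54.9 CPM in wild type, and was at 63.6 and 84.0 CPM in line 1, at 96.7 and 91.0 CPM in line 2 and at 54.9 and 50.03 CPM in line 3. The libraries of lines 1 and 2 all lay above the wild type, and line 3 lay level with it. Against wild type, the log2 fold change came to 0.58 in line 1 (SE 0.0925, adjusted p = 0.00023), 0.93 in line 2 (SE 0.0910, adjusted p = 6.85e-07) and 0.09 in line 3 (adjusted p = 0.686), and the lines differed (adjusted p = 0.0105). Over the 3 lines it was 0.57 (SE 0.164, adjusted p = 0.0282), a call that was lost in 10 of 18 alternative fits, with adjusted p of up to 0.158.

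COL6A1 (chromosome 21, 45981737 to 46005050, plus strand) moved little. It ranged from 65.1 over 71.5 to 76.1 CPM in wild type and was at 75.8 and 86.7 CPM in line 1, at 79.1 and 82.2 CPM in line 2 and at 70.1 and 70.5 CPM in line 3. Lines 1 and 2 were called at 0.19 each (adjusted p = 0.0152 and 0.0129), and line 3 at -0.01 was not (adjusted p = 0.937). Both calls were lost when either that line's light library or, for line 2, also its heavy library was left out (adjusted p from 0.0551 to 0.306).

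The ratio between the type VI chains differed in lines 1 and 2, which was not tested. COL6A2 was 0.695-fold COL6A1 in CPM in the mean of wild type, with a range of 0.646 to 0.773. Line 1 had ratios of 0.839 and 0.969, line 2 of 1.222 and 1.107, and line 3 of 0.783 and 0.7098, so 5 of 6 knockout libraries lay above the wild-type range. COL6A6, a chain that can take the place of COL6A3, had 0.687 ± 0.255 CPM in wild type (SD, n = 6) and was called in none of the comparisons, with -0.56 over the 3 lines (adjusted p = 0.0701). Without line 1 in heavy medium it was called over the lines, at -0.72 (adjusted p = 0.0357).

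**Figure D4:**
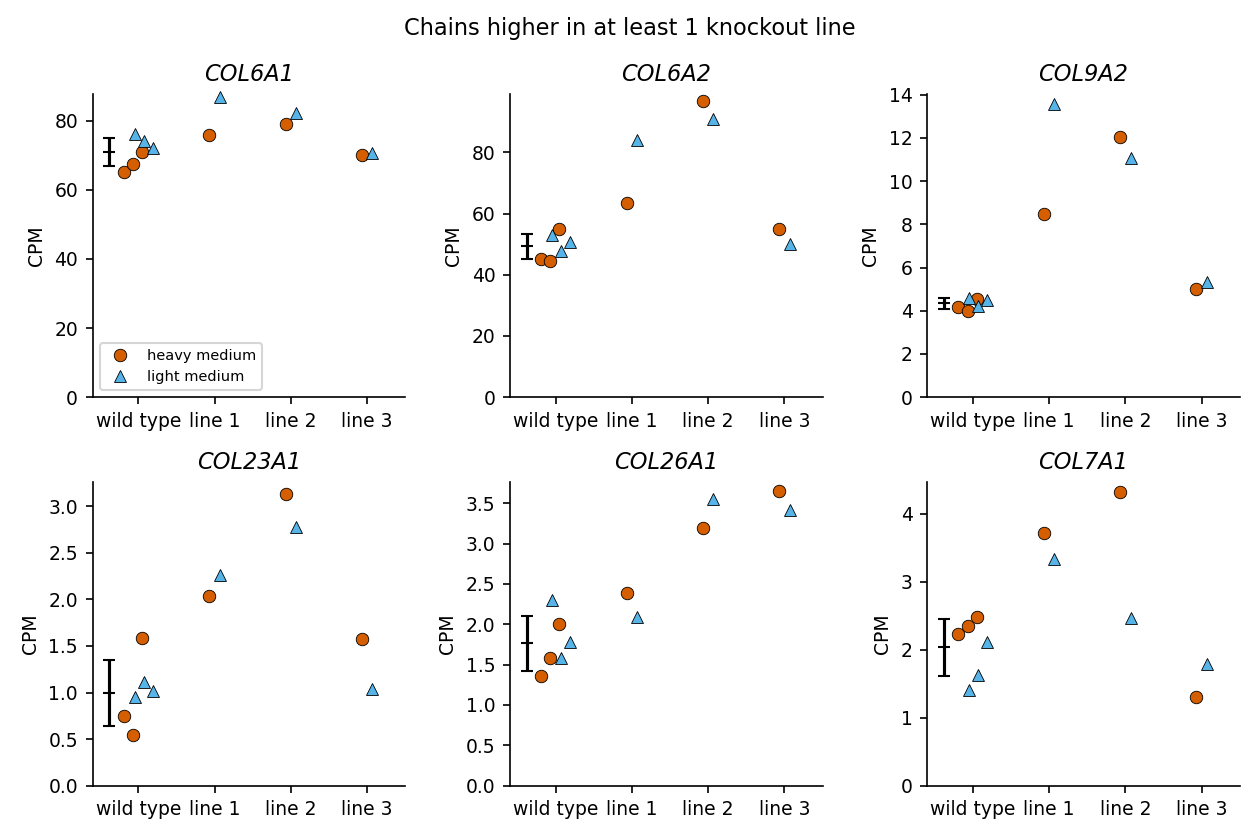
CPM of COL6A1, COL6A2, COL9A2, COL23A1, COL26A1 and COL7A1 in each library (points), by wild type and knockout line, with heavy and light medium marked; each panel has its own axis from 0. COL9A2 and COL6A2 are high in lines 1 and 2, and COL26A1 is highest in lines 2 and 3.

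Of the 8 tested fibrillar chains, 2 fell and none rose in line 1, where 12.8% of all genes tested were lower. The 25% called in line 1 were near the 28.2% of all genes. In line 2, 5 fell and 2 rose, against 20.1% and 22.9% of genes. In line 3 only COL5A1 was called, as higher, against 3.27% of genes. COL1A1 and COL1A2 encode the chains of type I collagen, the main fibril of connective tissue, and were scarce in these neuronal cells. COL1A1 (chromosome 17, 50183289 to 50201632, minus strand) ranged from 1.84 over 2.24 to 2.64 CPM in wild type. It was at 1.05 and 0.453 CPM in line 1, at 0.508 and 0.579 CPM in line 2 and at 1.87 and 2.21 CPM in line 3. Lines 1 and 2 lay below all wild-type libraries and line 3 within their range. The lines stood at log2 fold changes of -1.60 in line 1 (SE 0.257, adjusted p = 0.000136), -2.06 in line 2 (SE 0.285, adjusted p = 1.17e-05) and -0.14 in line 3 (adjusted p = 0.792), with a difference among lines (adjusted p = 0.0127). Without line 1 in heavy medium, line 1 stood at -2.35 (adjusted p = 1.58e-05). Over the 3 lines COL1A1 stood at -1.01 (adjusted p = 0.0593), and blocking on the replicate number, which names a line only in the knockout groups, gave a call at -1.16 (adjusted p = 0.0123). On counts summed per line no chain was called.

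COL1A2 (chromosome 7, 94394561 to 94431232, plus strand) ranged from 0.626 over 0.927 to 1.74 CPM in wild type, and was at 0.494 CPM and 0 reads in line 1, at 0.0846 CPM and 0 reads in line 2 and at 0.569 and 1.25 CPM in line 3. The 2 light libraries of lines 1 and 2 had no read of it. Line 2 held 3 reads in all, which makes wild type 21.2-fold higher by pooled counts, with a 95% exact interval of 7.15 to 104 that covers counting error only, and it was called (adjusted p = 0.00351). Line 1 at -2.10 was called (SE 0.674, adjusted p = 0.0347), but not without its light library (-1.19, adjusted p = 0.238) or without any 1 of 4 wild-type libraries (adjusted p from 0.0581 to 0.0692). Its light library alone lay 12.2-fold or more below wild type at a floor of 3 counts for that library. The 95% exact interval of this fold starts lower, at 9.84.

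COL11A1, a chain of type XI collagen that seeds thin fibrils in cartilage and other tissues, was described in every library after its values were seen. COL11A1 (chromosome 1, 102876467 to 103108872, minus strand) ranged from 6.74 over 8.78 to 10.01 CPM in wild type. It was at 5.06 and 0.0566 CPM in line 1, at 0.310 and 0.347 CPM in line 2 and at 3.48 and 4.53 CPM in line 3. No knockout library reached the wild-type range, and the libraries of line 1 were the highest and the lowest of the 6 knockout libraries. Only line 2 was called, at -4.76 (SE 1.11, adjusted p = 0.0103), and the call was lost without its heavy (-4.43, adjusted p = 0.116) or light library (-5.01, adjusted p = 0.0588). Lines 1 at -1.87 (adjusted p = 0.107) and 3 at -1.08 (adjusted p = 0.459) were not called. The light library of line 1 held 2 reads, by which wild type was 154-fold higher with a 95% exact interval of 42.4 to 1269, and line 1 was called when its heavy library was left out (adjusted p = 1.97e-10).

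Among other fibrillar chains, COL5A1, which regulates the diameter of type I fibrils, rose. COL5A1 (chromosome 9, 134641774 to 134844843, plus strand) ranged from 0.445 over 0.580 to 0.742 CPM in wild type, and was at 0.698 and 0.509 CPM in line 1, at 1.33 and 0.618 CPM in line 2 and at 1.44 and 1.76 CPM in line 3. Line 1 lay within the wild-type range, line 2 above it in heavy medium alone, and line 3 above it in both media. Line 3 was called at 1.45 (SE 0.264, adjusted p = 0.00234), a call lost without its light library (1.13, adjusted p = 0.103). Line 2 was called at 0.75 (adjusted p = 0.0476), but its call was lost in 9 of 17 alternative fits, and without its heavy library the difference was 0.05 (adjusted p = 0.947).

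COL11A2, the partner chain of COL11A1, rose in line 2 by 0.60 (SE 0.190, adjusted p = 0.0152) from a wild-type level of 2.50 ± 0.468 CPM (SD, n = 6), and was at 0.22 without the heavy library of that line (adjusted p = 0.582). COL27A1 fell in line 2 by 1.76 (SE 0.409, adjusted p = 0.00206) from 1.30 ± 0.268 CPM, and without the heavy library of line 2 it stood at -2.37. Without line 1 in heavy medium, COL27A1 also fell in line 1, at -1.90 (adjusted p = 0.0038). COL3A1, the chain of type III collagen, had 0.516 ± 0.242 CPM in wild type (SD, n = 6) and 3 reads in line 2, by which wild type was 10.3-fold higher with a 95% exact interval of 3.44 to 51.0. It was called there (adjusted p = 0.0018), but not without the heavy library, which held none of the 3 reads (-1.80, adjusted p = 0.14). COL5A2, at 3.88 ± 0.520 CPM, was called in no comparison, with 0.04 over the 3 lines (adjusted p = 0.848).

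In the FACIT class, COL9A2 rose and COL9A1 fell, although both encode chains of type IX collagen, which decorates cartilage fibrils. COL9A2 (ENSG00000049089.14; chromosome 1, 40300487 to 40317813, minus strand) ranged from 3.998 over 4.36 to 4.60 CPM in wild type. It was at 8.49 and 13.6 CPM in line 1, at 12.0 and 11.1 CPM in line 2 and at 4.99 and 5.33 CPM in line 3. It was the one tested chain with every knockout library above every wild-type library, where 6.54% of all genes tested had this pattern. Below every wild-type library in all 6 knockout libraries were COL4A1, COL4A2 and COL11A1, against 4% of genes. Log2 fold changes of COL9A2 were 1.34 in line 1 (SE 0.128, adjusted p = 3.90e-07), 1.42 in line 2 (SE 0.128, adjusted p = 7.24e-08), 0.25 in line 3 (adjusted p = 0.372) and 1.09 over all lines (SE 0.232, adjusted p = 0.00778). The lines differed (adjusted p = 0.00586).

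COL9A1 (chromosome 6, 70215061 to 70303083, minus strand) had another order of lines. It ranged from 1.19 over 1.53 to 1.98 CPM in wild type and was at 0.582 and 0.113 CPM in line 1, at 1.81 and 1.78 CPM in line 2 and at 0.402 and 0.160 CPM in line 3. Line 2 lay within the wild-type range and lines 1 and 3 below it. Log2 fold changes were -2.19 in line 1 (SE 0.367, adjusted p = 0.000214), 0.20 in line 2 (adjusted p = 0.597) and -2.51 in line 3 (SE 0.391, adjusted p = 0.00058), with a difference among lines (adjusted p = 0.00586). Line 3 kept this call in all 17 alternatives. Line 1 stood at -3.60 without its heavy library (adjusted p = 4.97e-05) and at -1.54 without its light one (adjusted p = 0.0131). COL9A3, the other type IX chain, had 0.542 ± 0.154 CPM in wild type (SD, n = 6) and was called in none of the comparisons, with 0.17 over the 3 lines (adjusted p = 0.617).

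COL16A1 (chromosome 1, 31652247 to 31704319, minus strand), a FACIT chain found near basement membranes and fibrils, fell slightly. It ranged from 6.83 over 8.48 to 10.4 CPM in wild type and was at 7.27 and 5.55 CPM in line 1, at 6.77 and 5.52 CPM in line 2 and at 7.93 and 6.31 CPM in line 3. The groups overlapped, and the light library of each line was below its heavy one. The log2 fold change over the 3 lines was -0.41 (SE 0.106, adjusted p = 0.0152). It was -0.44 in line 1 (adjusted p = 0.0235), -0.50 in line 2 (adjusted p = 0.00876) and -0.29 in line 3 (adjusted p = 0.269). Line 1 was not called without its light library (-0.33, adjusted p = 0.317), nor line 2 without its heavy (adjusted p = 0.0655) or light one (adjusted p = 0.0919).

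Among membrane-bound and other chains, COL23A1, COL26A1 and COL7A1 rose in part of the lines. COL23A1 (chromosome 5, 178237618 to 178590555, minus strand), a transmembrane collagen that can be shed from the cell surface, ranged from 0.548 over 0.987 to 1.59 CPM in wild type. It was at 2.04 and 2.26 CPM in line 1, at 3.13 and 2.78 CPM in line 2 and at 1.57 and 1.04 CPM in line 3. Lines 1 and 2 lay above the wild type and line 3 within its range. Against wild type, the log2 fold change came to 1.09 in line 1 (SE 0.262, adjusted p = 0.00436), 1.55 in line 2 (SE 0.254, adjusted p = 8.43e-05), 0.35 in line 3 (adjusted p = 0.565) and 1.08 over all lines (SE 0.286, adjusted p = 0.0169), with a difference among lines (adjusted p = 0.0385). Line 1 at 0.95 was not called without its light library (adjusted p = 0.113).

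COL26A1 (chromosome 7, 101362820 to 101559024, plus strand) rose in lines 2 and 3. It ranged from 1.35 over 1.68 to 2.30 CPM in wild type and was at 2.38 and 2.09 CPM in line 1, at 3.19 and 3.55 CPM in line 2 and at 3.65 and 3.41 CPM in line 3. Line 1 in light medium was the one knockout library within the wild-type range. The lines stood at log2 fold changes of 0.34 in line 1 (adjusted p = 0.188), 0.93 in line 2 (SE 0.178, adjusted p = 0.000356), 1.00 in line 3 (SE 0.174, adjusted p = 0.00171) and 0.78 over all lines (SE 0.172, adjusted p = 0.0072). Line 3 at 0.90 was not called without its heavy library (adjusted p = 0.0642), and a difference among lines was not called (adjusted p = 0.136).

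COL7A1 (chromosome 3, 48564073 to 48595267, minus strand), the anchoring fibril chain that ties epidermal basement membrane to the dermis, ranged from 1.41 over 2.17 to 2.48 CPM in wild type. It was at 3.72 and 3.34 CPM in line 1, at 4.32 and 2.47 CPM in line 2 and at 1.30 and 1.78 CPM in line 3. Line 1 lay above the wild type, line 2 above it in heavy medium alone, and line 3 below it in heavy medium and within it in light medium. Log2 fold changes were 0.80 in line 1 (SE 0.190, adjusted p = 0.00376), 0.74 in line 2 (SE 0.195, adjusted p = 0.00495) and -0.35 in line 3 (adjusted p = 0.428), with a difference among lines (adjusted p = 0.0412). Without its light library line 1 was at 0.70 (adjusted p = 0.0963), and without its heavy library line 2 was at 0.41 (adjusted p = 0.33). COL8A2, a network-forming chain, had 0.872 ± 0.154 CPM in wild type (SD, n = 6) and was called in no comparison, with 0.30 over the 3 lines (adjusted p = 0.229).

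In total, 7 of the 21 chains tested differed among the 3 lines, where 12.7% of 16206 genes did. They were COL9A2, COL9A1, COL7A1, COL23A1, COL1A1, COL18A1 and COL6A2. These calls depended on single libraries. More chains were called without line 1 in heavy medium, COL4A1, COL4A2 and COL11A1 among them. Fewer were called without either library of line 2 or without the light library of line 3. Each of these fits left a line with 1 library, and the number of calls over all genes rose and fell in the same way. Without the heavy library of line 3 the calls of COL9A2 (adjusted p = 0.0627), COL7A1 (0.349) and COL23A1 (0.0622) were lost. DESeq2 did not call COL7A1 (adjusted p = 0.0976) or COL23A1 (adjusted p = 0.198).

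Summed over chains, each of the 6 knockout libraries held less collagen RNA than the lowest of wild type, line 3 by the smallest margin. All 44 chains together held 415 to 461 CPM in wild type, 372 and 325 CPM in line 1, 308 and 292 CPM in line 2, and 407 and 392 CPM in line 3. The basement membrane chains held between 44.59% and 48.54% of collagen CPM in wild type. Line 1 had shares of 30.29% and 9.401%, line 2 of 9.452% and 9.946%, and line 3 of 44.98% and 45.42%. The summed beaded filament chains were at 112 to 130 CPM in wild type, at 140.2 and 171 CPM in line 1, at 176 and 174 CPM in line 2 and at 126 and 121 CPM in line 3. By summed CPM, which is not scaled to gene length, type VI chains thus exceeded type IV chains in lines 1 and 2 but not in line 3. Per kb of annotated exon, COL6A1 and COL6A2 each already lay above both type IV chains in wild type. They were at 13.3 and 9.16 CPM per kb, against 7.61 for COL4A2 and 4.12 for COL4A1. Line 3 had the same order, with 13.2 and 9.74 against 6.59 and 3.61 CPM per kb. The class sums were not tested.

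**Figure D5:**
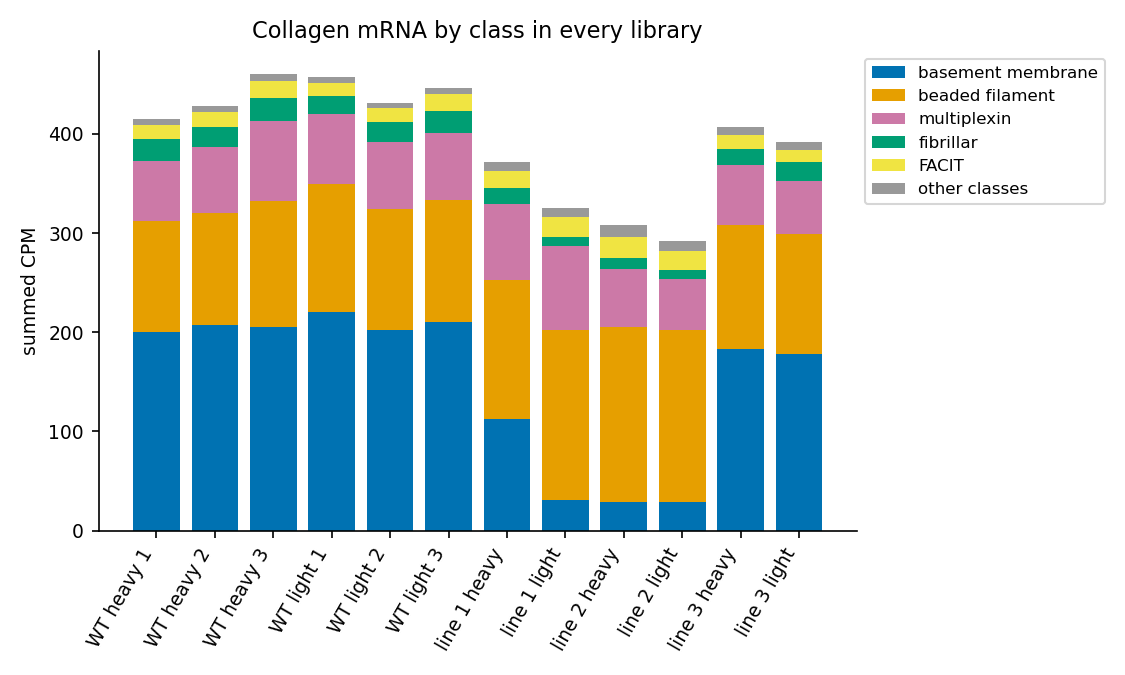
Summed CPM of the collagen classes (stacked bars from 0) in each of the 12 libraries. The basement membrane band shrinks to 30.6 CPM or less in line 1 in light medium and both libraries of line 2, from 200.2 to 220.1 CPM in wild type.

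No chain was called between heavy and light medium by edgeR or DESeq2, where 0% of the 16704 genes were called by edgeR, and 1 chain and 531 genes (3.18%) had an unadjusted p under 0.05. The interaction of genotype and medium called no chain and 0% of genes by either tool, with 0 chains and 149 genes at an unadjusted p under 0.05.

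Genes that act on collagens moved in both directions. Of 18 tested genes for modification and folding, 4 were higher and 4 lower over the 3 lines, with a median of -0.02. Over all genes tested in this comparison 15% were higher and 9.78% lower, the background for this and the following lists. CRTAP, part of the prolyl 3-hydroxylation complex, stood at 0.34 (adjusted p = 0.0102) and the galactosyltransferase genes COLGALT1 and COLGALT2 at 0.21 (adjusted p = 0.00529) and 0.57 (adjusted p = 0.0119). P4HA1, a catalytic subunit of prolyl 4-hydroxylase, fell at -0.52 (adjusted p = 0.0201). SERPINH1, the collagen chaperone HSP47, was named outside the rule and lay at 0.00 (adjusted p = 0.972). Of 9 tested genes for export, MIA3 at 0.24 and SEC24D at 0.21 were higher, and CREB3L2, a transcription factor for secretory genes, was lower at -0.75 (adjusted p = 0.0297), with a median of 0.06.

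Outside the cell, 2 of 12 tested genes for processing and crosslinking were higher and 1 lower, with a median of -0.08, a share near the 24.8% called over all genes. ADAMTS3, a procollagen protease, was at 1.52 (adjusted p = 0.0271) and FURIN at 0.26 (adjusted p = 0.0277). PCOLCE, which enhances removal of the C-propeptide, was at -0.26 (adjusted p = 0.0233). Of 8 tested genes for breakdown, 5 were higher and none lower over the 3 lines, with a median of 0.28, against 15% and 9.78% of all genes. In lines 1 and 2 taken alone, 5 were higher and 1, MMP16, was lower in each, at -0.35 (adjusted p = 0.00877) and -0.49 (adjusted p = 0.000388); it was named after its values were seen. TIMP3, an inhibitor of matrix proteases, was at 1.95 (adjusted p = 0.0245), TIMP1 at 1.05 (adjusted p = 0.00316), MMP15 at 1.36 (adjusted p = 0.0311) and MMP2, which cleaves type IV collagen, at 0.40 (adjusted p = 0.00147). Both proteases and their inhibitors were thus among the genes that rose. In line 3, 1 of these 8 was called.

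Of 5 tested collagen receptors, ITGA1 at 1.16 (adjusted p = 0.0156) and DDR1 at 0.51 (adjusted p = 0.0129) were higher and ITGA2 at -0.46 (adjusted p = 0.0262) was lower, with a median of 0.01. Of 12 tested partners of type IV collagen in the basement membrane, 3 fell and 1 rose, with a median of -0.06, against 24.8% of all genes called. The laminin chain genes LAMA3 at -1.64 (adjusted p = 0.00114) and LAMA1 at -0.96 (adjusted p = 0.0259) and the linker NID2 at -1.45 (adjusted p = 0.0147) fell, and LAMA4 rose at 1.70 (adjusted p = 0.0221). Of 7 tested fibril partners, LUM at -1.17 and ELN at -0.74 fell and FBN1 at 1.26 rose, with a median of -0.74. By line, these 7 lists together had their calls in lines 1 and 2, where for example 5 and 4 fibril partners fell (against 12.8% and 20.1% of all genes), and 3 called genes in line 3, namely SEC24D, MMP2 and LAMA3.

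Markers of the cell type were set beside the collagens. All 14 adrenergic neuroblastoma markers were tested and summed to 9966 to 10945 CPM in wild type and to 7958 to 10357 CPM in knockout. Over the 3 lines 2 were higher and 2 lower, against 15% and 9.78% of all genes. In line 1, 4 were higher and 5 lower (against 15.4% and 12.8%), and in line 2, 4 and 7 (22.9% and 20.1%). Line 3 had 1 of each (3.27% and 1.73%), and 9 differed among the lines (12.7% of all genes). The sum hides opposite moves. From wild type to line 2, GAP43 went from 63.9 to 260 CPM and DBH from 2252 to 946 CPM. TH was low in wild type at 0.616 CPM, whereas DBH was at 2252 CPM. Markers of mesenchymal cells and fibroblasts, which commonly make type I and type VI collagen, summed to 655 to 678 CPM in wild type and 487 to 601 CPM in knockout. Of 13 tested, 5 were higher, VIM and PRRX2 among them, and 4 lower, PDGFRB and TWIST1 among them, against 15% and 9.78% of all genes, while PRRX1 and TWIST2 had no read and YAP1 was near 0. Schwann cell and glial markers summed to 7.86 to 9.32 CPM in wild type and 11.6 to 36.7 CPM in knockout, and 3 of 4 tested rose (PMP22, ERBB3 and S100B, against 15% of all genes), but SOX10, FABP7, GFAP and CDH19 had no read. Endothelial and blood cell markers, 7 in all, summed to at most 0.197 CPM and none was tested. The part of these shifts in the collagen differences was not tested.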

How the data were processed

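Poly(A) RNA of 12 SH-SY5Y libraries was measured, from stranded libraries per the labels' protocols. The authors deposited unnormalised counts per gene, in whole numbers. Per the submitters' processing notes, tools were bcl2fastq 2.19.0, STAR 2.7.0f, featureCounts of Subread 1.6.4, DESeq2 1.22.1 and R 3.5.1, with build GRCh38.p13. The release of the annotation, like the handling of strand and of multi-mapping reads, was not given in the sources used here. For this reason values of genes that overlap on either strand are uncertain, and 5 of the 22 tested chains share exon bases with a gene on the opposite strand, COL4A2, COL9A1, COL9A3, COL16A1 and COL18A1. No column of the table was left without a sample (0 columns).

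Counts were tested as deposited in edgeR 4.0.16 (R 4.3.3): TMM, filterByExpr over the 4 groups, which left 16704 genes, robust quasi-likelihood fits with medium as a covariate, and Benjamini-Hochberg adjustment at 0.05. Lines were compared with wild type in 1 fit of all 12 libraries, and with each other in the 6 knockout libraries. The procedure was tested on simulated data with independent libraries, a fixed spread and changes in well-expressed genes only. Such data cannot show how it performs with correlated libraries of a line or with chains of few reads. CPM, per-kilobase values (all exons of GENCODE release 29 merged per gene), medians and ratios were computed here. Promoter sequences and motif shares came from RefSeq on GRCh38.p14.

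Chains at a mean of at least 1 CPM or called in any comparison were named. Values of every library were given for chains called over the 3 lines or in at least 2 lines and for the 5 most abundant. Of each other list, except that of adrenergic markers, up to 4 called genes with the smallest p were named. The members, the lists and these rules were chosen with earlier results of these data known.

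Knockout libraries of the same number come from the same line, per the labels. Deviations from the group means (log2 of CPM plus 0.5) correlated between the media at 0.132, 0.703 and 0.722 for lines 1, 2 and 3, and at 0.1, 0.013 and -0.097 for the wild-type numbers, which name no line. Alternatives were fits with each library left out, a block for the replicate number, RLE factors, DESeq2 1.42.0, counts summed per line, only wild type and 1 line, no filter on low counts, and a filter of 1 CPM or more in 3 or more libraries. Since 6 knockout libraries stand for 3 lines, the fit on summed counts is the stricter one for knockout against wild type.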

Additional observations from a re-analysis of the deposited data

Results flagged for a closer look

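Among the 3 knockout lines, 7 chains differed by edgeR's test of the difference itself on the 6 knockout libraries. The adjusted p was 0.00500 for COL18A1, which was high in line 1 and low in lines 2 and 3. It was 0.00586 for COL9A2, high in lines 1 and 2, and 0.00586 for COL9A1, low in lines 1 and 3. COL6A2 (0.0105) and COL23A1 (0.0385) were high in lines 1 and 2, COL1A1 (0.0127) was low there, and COL7A1 (0.0412) was lower in line 3 than in the other lines. DESeq2 shared 5 of these 7 calls, without COL7A1 and COL23A1. A search for single libraries far from the rest of their group found none in the 44 sets of wild-type or knockout values tested. Each knockout set pools 3 lines that differ, which can hide a single unusual library. Nothing follows from this search about line 1 in heavy medium.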

How the results depend on the processing

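For knockout against wild type, all 5 called chains remained called under RLE factors, DESeq2 (7 called), a filter of 1 CPM or more in 3 or more libraries, and the replicate block (7 called), which added COL27A1 (-0.84, edgeR adjusted p = 0.0419) and COL1A1. The block changed no other call, and none for medium or the interaction, which stayed at 0 under every alternative. Without a filter on low counts COL6A2 lost its call (adjusted p = 0.0738). On counts summed per line 0 chains and 272 genes were called, and DESeq2 was not run on these sums. Without a filter, line 3 had 6 called chains (1387 genes) and the lines differed in 11 (3411 genes). In fits of wild type and 1 line, line 3 had 6 (1256 genes). Fewer samples or other genes tested are part of each of these fits, and what else moved them was not tested.

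Leaving out 1 library at a time gave 4 to 13 called chains for knockout against wild type, 7 to 14 for line 1, 10 to 17 for line 2, 2 to 6 for line 3, 1 to 14 for the difference among lines, and 0 to 0 for medium and for the interaction. COL5A2, which was not called, lay between -0.0366 (without the light library of line 3) and 0.088 (without the first heavy wild-type library) and also changed sign at -0.0248 without the second light wild-type library. Without its heavy library, line 1 stood at log2 fold changes of 1.64 for COL9A2, 0.77 for COL6A2, 1.23 for COL23A1 and 0.92 for COL7A1. COL16A1 then stood at -0.56 and COL6A1 at 0.25, all on 1 library of that line. Depth limits the 10 chains with 1 to 79 reads, for which no difference could be tested, and the folds of COL1A2, COL3A1, COL9A1 and COL11A1.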

Other observations

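Partner chains of the same collagen differed in how they moved, beyond the type IV and type VI pairs. COL9A2 was 2.31-fold to 3.81-fold COL9A1 in CPM in the wild-type libraries, 14.6-fold and 120-fold in line 1, 6.67-fold and 6.24-fold in line 2, and 12.4-fold and 33.3-fold in line 3. COL11A1 was 2.88-fold to 4.34-fold COL11A2 in wild type, but 1.42-fold and 0.0168-fold in line 1, 0.0655-fold and 0.120-fold in line 2, and 1.33-fold and 1.48-fold in line 3. Both ratios lay outside the wild-type range in all 6 knockout libraries. They were chosen after their values were seen and were not tested. In line 1 in light medium COL11A1 rests on 2 reads and COL9A1 on 4, and in line 3 in light medium COL9A1 rests on 6.

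Among chains too scarce to be tested, COL22A1, a FACIT chain of tissue junctions, was at 0.0828 ± 0.0462 CPM in wild-type and at 0.175 ± 0.0445 CPM in knockout libraries (SD, n = 6 each). COL13A1, a transmembrane collagen of the neuromuscular junction, had no read in wild type and 5 reads in knockout, 1 in each of 5 libraries. COL12A1 had 4 reads, all in wild type. These chains were also picked after their values were seen.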
